A study of Mus musculus with 3 samples.

Results

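The 38 genes described here build and load the primary cilium. They encode intraflagellar transport (IFT) proteins, Bardet-Biedl syndrome (BBS) proteins, ciliary motors, proteins of the ciliary membrane, proteins of the transition zone, and proteins of the basal body and of ciliary planar polarity. They were chosen by symbol from the count tables, and all 38 were among the 24062 symbols there. Each of the 38 had counts in wild type and 34 had counts in *tuft*, whereas 17140 of the 24062 genes had a count in either library.

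The primary cilium is a single microtubule-based projection of the cell surface. IFT trains carry cargo along it: the IFT-B complex with kinesin-2 moves cargo to the tip, the IFT-A complex with dynein-2 returns it, and the BBSome, a coat-like complex, moves membrane proteins out. The transition zone at the base acts as a gate between the cilium and the rest of the cell. In vertebrates Hedgehog signals are read in the cilium, and mouse mutants of several of these genes, among them *Tulp3*, *Gpr161*, *Ift122* and *Fuz*, are known for open neural tubes.

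RNA was sequenced from the rostrum, the front of the head, of E9 mouse embryos with 18 to 22 somites. The *tuft* embryos were homozygous for a spontaneous nonsense allele of *Tet1*, which encodes an enzyme that oxidizes methylated cytosine, and had neural tube closure defects. The wild-type embryos were of the 3H1 Balb strain in which *tuft* arose. RNA was pooled from 3 embryos. The labels list 2 *tuft* samples and 1 wild-type sample, but 1 column of counts for each genotype was analyzed, and which *tuft* sample or samples its column holds is not known. Each column is called a library here. With 1 column per genotype no value has a replicate error, and no test between genotypes was made.

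The counts on genes summed to 6433067 in *tuft* against 14251942 in wild type. Levels are given as counts per 1000000 counts after scaling by the trimmed mean of M-values (TMM), called normalized CPM. Fold changes are *tuft* over wild type on this scale, with a 95% Clopper-Pearson interval that covers counting error only. A gene was called higher or lower where this whole interval lay past 2-fold, and a call therefore describes these libraries and not the genotypes. A count of 0 leaves room for 3 counts, a level of 0.535 normalized CPM in *tuft* and of 0.184 in wild type. For genes at 0 in *tuft* the bound given ("at least") sets these 3 counts in place of 0. It is a one-sided bound, and the two-sided 95% interval reaches closer to wild type, to 12.8-fold lower for *Ift88*, 26.8-fold for *Bbs2*, 6.90-fold for *Bbs10* and 10.6-fold for *Rpgrip1l*.

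The *tuft* library stood apart from the wild-type library in how many genes it lacked. Counts were found for 11795 genes in *tuft* and 16914 in wild type. Of genes whose wild-type level was 5 to 10 normalized CPM, 25.0% were without a count in *tuft*, and this share was 40.3% from 3 to 5 and 11.0% from 10 to 20. *Tet1* itself had 32 counts in *tuft* against 435 in wild type, giving a fold change of 0.214 (95% interval 0.145 to 0.307).

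Most markers of the head had counts in both libraries. The calls below stand beside 24.3% of all genes with a count called lower and 14.2% higher. On the TMM scale the sum of all genes was 1.31-fold higher in *tuft* by the scaling alone, and the sums below carry this. All 10 markers of head neuroectoderm had counts in wild type, and in *tuft* *Hesx1* had none and *Rax* had 2 counts. The summed normalized CPM of these 10 was 1196 in *tuft* against 700.2 in wild type. *Hesx1* and *Rax* were the 2 called lower, and 3 were called higher (*Six3*, *Sox1* and *Emx2*). The 8 markers of head mesenchyme and neural crest summed to 587 and 270.1, with 2 called lower (*Prrx2*, at 0 in *tuft* and 301 counts in wild type, and *Pdgfra*) and 2 higher (*Sox10* and *Twist1*). The 6 of surface ectoderm summed to 894 and 533, with 1 called lower (*Cdh1*) and 1 higher. Other tissues differed between the libraries as well. The 11 yolk sac markers summed to 335 in *tuft* against 2019 in wild type, with 9 called lower and *Apoa4* and *Fgb* at 0 in *tuft*. The 8 blood markers summed to 40733 and 2802, with 3 called lower, 3 higher and *Gata1* and *Klf1* at 0 in *tuft*. The 6 endothelial markers summed to 147 and 248, with 3 called lower, 1 higher (*Emcn*) and *Pecam1* at 0 in *tuft*. In pooled tissue, fewer cells of a type and less RNA per cell cannot be told apart. The part of tissue makeup in the values of the cilium genes was not tested.

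The promoters of many cilium genes carry an X-box, the sequence bound by regulatory factor X (RFX) proteins, among them transcription factors of ciliary genes. RefSeq promoters of GRCm38.p6, from 250 bases before to 50 bases after a gene's start, were given for 34 of the 38 genes in 35 windows. X-box letters were searched on both strands as GTNNCC, then any 3 bases, then GNAAC. They occurred in 8 of the 35 windows (22.9%) and in 9 of 60 windows (15.0%) of other cilium genes. The share was 2.67% in 15646 windows of genes with a count and 2.17% in all 32851 windows. The 8 stretches are shown because they are a feature of these promoters that the choice by name did not use. Each is written on the gene's strand, with the 14 matched bases in capitals.

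*Bbs1*, chr19:4906605-4906634: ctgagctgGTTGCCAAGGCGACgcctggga
*Bbs4*, chr9:59353464-59353493: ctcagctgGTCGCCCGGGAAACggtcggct
*Bbs7*, chr3:36613489-36613518: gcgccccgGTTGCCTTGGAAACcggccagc
*Ift57*, chr16:49699199-49699228: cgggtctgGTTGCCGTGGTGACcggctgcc
*Intu*, chr3:40540709-40540738: gcttccccGTCTCCCAGGCAACcggcgcct
*Mks1*, chr11:87853183-87853212: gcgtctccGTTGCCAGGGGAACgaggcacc
*Tctn1*, chr5:122264411-122264432: ctgtgactGTTGCCCGGGCAAC
*Tctn2*, chr5:124598679-124598708: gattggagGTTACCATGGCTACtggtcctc

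In *Bbs7*, *Mks1* and *Tctn1* the motif matched at the same place on both strands. *Intu* and *Bbs4* matched on the gene's strand, and *Bbs1*, *Ift57* and *Tctn2* on the opposite one. The match began 121 bases before the start in *Bbs7*, 87 in *Ift57*, 62 in *Tctn2*, 50 in *Intu* and 24 in *Mks1*. It began 1 base after the start in *Bbs1*, 23 in *Bbs4* and 36 in *Tctn1*. Bases are counted from the start that each RefSeq window uses. In *Bbs1*, *Bbs7*, *Intu*, *Mks1* and *Tctn1* that start lies inside the gene's outermost ends. The window of *Intu* spans 40540517 to 40540816, whereas the gene begins at 40531291. A match describes letters and not a bound site. The windows of the 34 genes had a median of 20 CpG dinucleotides, against 18 in windows of genes with a count and 7 in all windows. *Gpr161*, with 1 and 5 CpG in its pair of windows, and *Cc2d2a*, with 3, were at the low end. CpG-rich promoters are the kind that TET1 is known to bind.

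Of the 38 genes, 16 (42.1%) were called lower in *tuft*, 4 (10.5%) were called higher and 18 were not called. Of all 17140 genes with a count, 24.3% were called lower, 14.2% higher and 38.6% in either direction. Among the 8397 genes with 5 to 100 normalized CPM in wild type, the range that holds 35 of the 38, 30.7% were called lower and 18.1% higher, beside 42.9% and 11.4% of those 35. The median log2 fold change was -1.04 over the 38 genes and -0.52 over all genes with a count. It was -1.08 over the 35 genes and -0.25 over all genes in the same range.

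With library totals alone the fold change of every gene shifted by -0.39 on the log2 scale, and 19 of the 38 genes were called lower and 2 higher. The share of calls that were lower then moved from 80.0% to 90.5% among the 38 genes, and from 63.1% to 75.2% among all genes. Centered on the median of genes that had 100 counts or more in each library, a shift of -0.34, it was 90.0% (18 lower and 2 higher) and 74.0%. The summed normalized CPM of the 38 genes was nearly level, at 877 in *tuft* against 917 in wild type. The fold change of this sum was 0.956 (95% interval 0.926 to 0.988). For the sum of all genes it was 1.31, a value that the TMM factors alone set and that is not a measured rise.

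**Figure D1:**
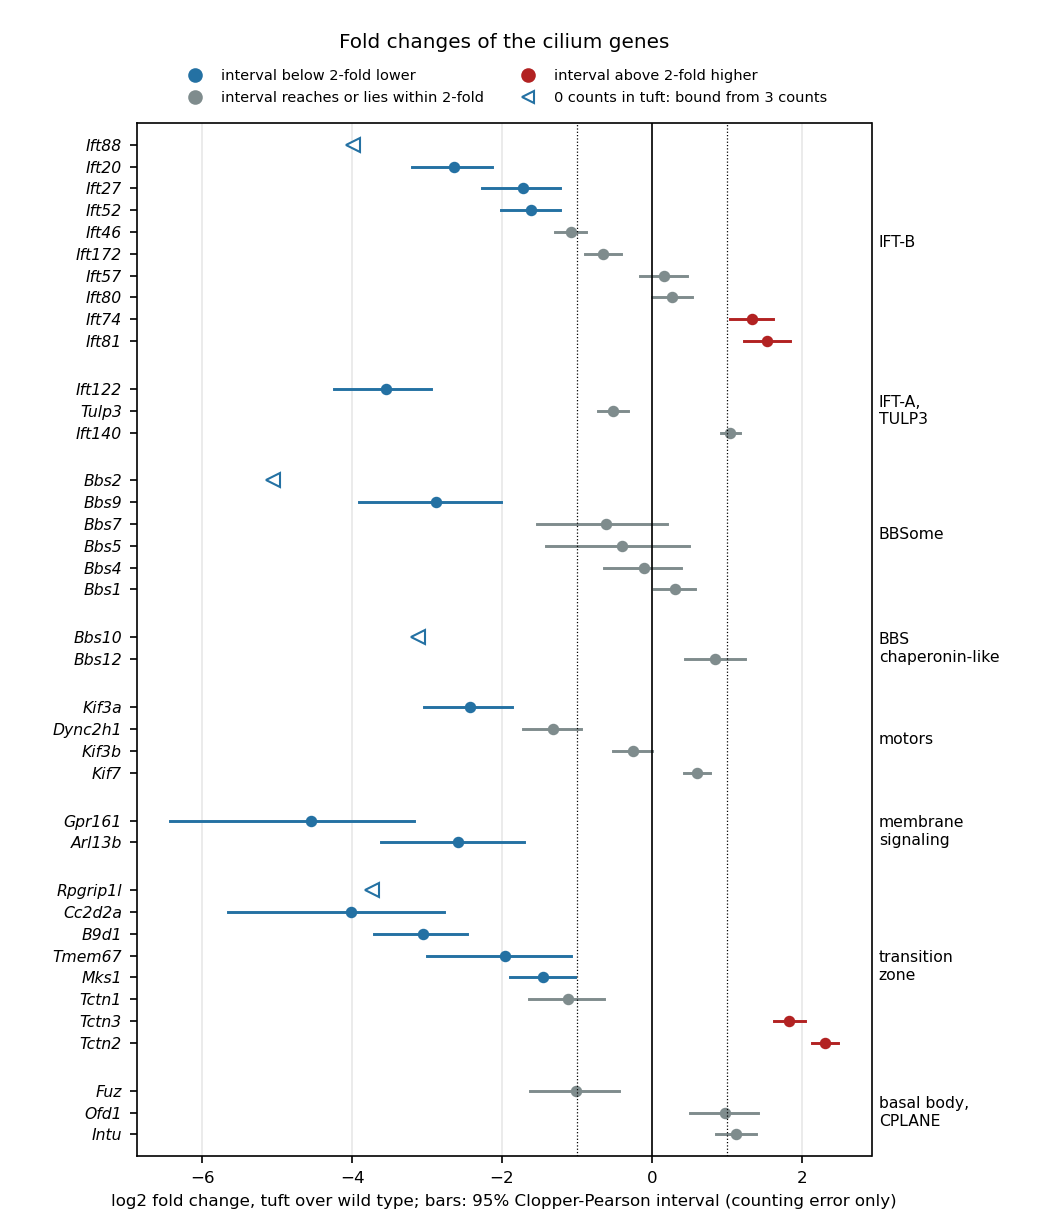
Log2 fold change (*tuft* over wild type, TMM scale) of the 38 cilium genes, grouped by role, with 95% Clopper-Pearson intervals for counting error and dotted lines at 2-fold. Blue points are the genes called lower, red points the 4 called higher, gray points the 18 not called, and open triangles the 4 genes with 0 counts in *tuft*, drawn at the bound that 3 counts give.

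**Figure D2:**
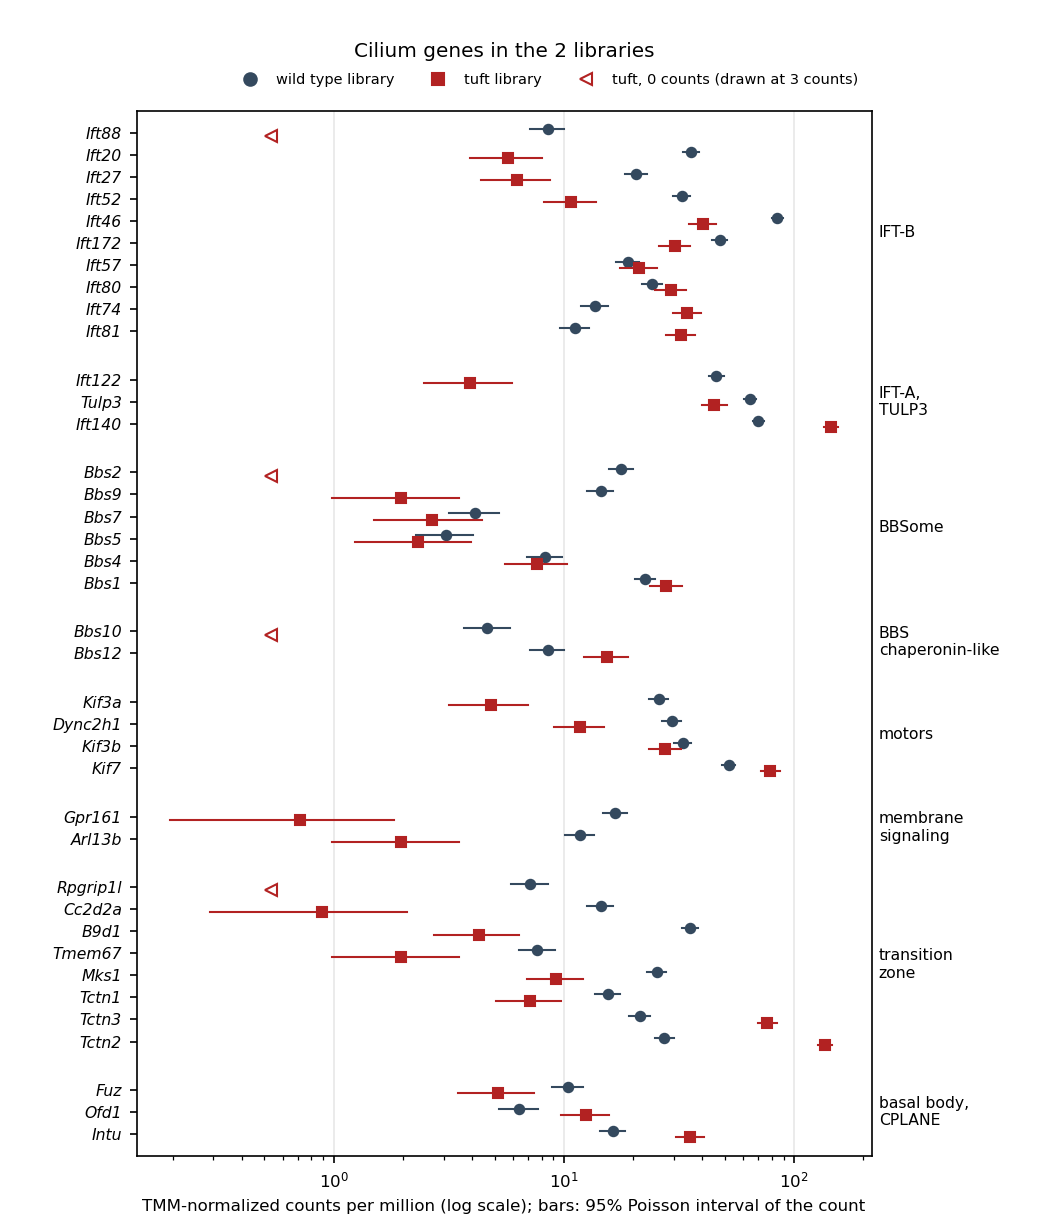
Normalized CPM (log scale) of the same genes in the wild-type library (dark circles) and the *tuft* library (red squares), with exact 95% Poisson intervals of the counts. Within the BBSome and the transition zone the *tuft* levels were spread more widely than the wild-type levels. In IFT-B this held only through *Ift88*, at 0 in *tuft*. The other IFT-B genes lay between 5.70 and 40.1 in *tuft* and between 11.1 and 84.6 in wild type.

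The 10 IFT-B genes, which form the train toward the tip, were split: 4 were called lower, 2 higher and 4 not called, with a median log2 fold change of -0.86. *Ift88*, whose loss in mice removes cilia, had no count in *tuft* against 139 in wild type (8.51 normalized CPM), which is at least 15.9-fold lower. It lies on chromosome 14 from 57424064 to 57517936. *Ift88* and *Rpgrip1l* were at 0 among the 6 cilium genes at 5 to 10 normalized CPM in wild type, where 25.0% of all genes were at 0.

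*Ift20*, the IFT-B subunit that also works at the Golgi, had 32 counts in *tuft* against 582 in wild type, giving a fold change of 0.160 (0.108 to 0.229). *Ift27*, a small GTPase needed to move BBSome cargo out of the cilium, had 35 and 337 counts, 0.302 (0.207 to 0.429). *Ift52*, part of the core that holds IFT88 in the complex, had 60 and 532 counts, 0.328 (0.247 to 0.429). These 3 genes were low in *tuft* without being lost from the library.

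*Ift74* and *Ift81* encode partners that bind tubulin cargo together, and both were called higher. *Ift74* (chromosome 4, 94603266 to 94693233) had 193 counts in *tuft* against 223 in wild type, giving a fold change of 2.52 (2.07 to 3.07), and overlaps *Lrrc19*. *Ift81* (chromosome 5, 122540265 to 122614546) had 181 and 182 counts, at a fold change of 2.90 (2.34 to 3.58). Their intervals overlap, so the partners did not differ beyond counting error. With library totals alone neither was called, at log2 fold changes of 0.94 for *Ift74* and 1.14 for *Ift81*.

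The other 4 IFT-B genes were not called. *Ift46* had the most counts of the 38 genes in wild type, with 225 counts in *tuft* against 1382 in wild type at a fold change of 0.474 (0.410 to 0.546). *Ift172*, the largest IFT-B subunit, had 170 and 776 counts, 0.638 (0.537 to 0.754). *Ift57* had 119 and 310 counts, 1.12 (0.897 to 1.39), and *Ift80* had 164 and 396, 1.21 (0.999 to 1.45). The direction of *Ift57* and of *Ift80* turned with library totals alone, to log2 fold changes of -0.23 and -0.12. *Ift46* was then called lower, at -1.47, as it was with the centering, at -1.42.

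IFT-A, the return train, was represented by *Ift122* and *Ift140*, which lay far apart. *Ift122* (chromosome 6, 115853379 to 115926699) had 22 counts in *tuft* against 752 in wild type, giving a fold change of 0.0852 (0.0531 to 0.130), and overlaps *Mbd4*. *Ift140* (chromosome 17, 25016083 to 25099499) had 814 and 1145 counts, 2.07 (1.89 to 2.27), and had the most counts of the 38 genes in *tuft*. It was not called, since its interval reaches below 2-fold, and it overlaps *Tmem204*. *Tulp3*, the adaptor through which IFT-A brings receptors into the cilium, had 253 and 1054 counts, 0.699 (0.607 to 0.803). The intervals of these 3 genes do not overlap each other.

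The motors showed a like split between partners. *Kif3a* and *Kif3b* encode the paired motor subunits of kinesin-2. *Kif3a* was called lower, with 27 counts in *tuft* against 422 in wild type at a fold change of 0.186 (0.121 to 0.275). *Kif3b* had 155 and 538 counts, 0.839 (0.697 to 1.00), and was not called. *Dync2h1*, the heavy chain of dynein-2, had 66 and 480 counts, 0.400 (0.305 to 0.519). Its interval just reached 2-fold, and it was called lower with library totals alone. *Kif7*, a kinesin that orders the ciliary tip for GLI proteins, had 443 and 849 counts, 1.52 (1.35 to 1.71).

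Of the 6 BBSome genes, 2 (33.3%) were called lower and none higher. The share lower was near the 30.7% of all genes with 5 to 100 normalized CPM in wild type. *Bbs2* (chromosome 8, 94067952 to 94099369) had no count in *tuft* against 290 in wild type, which is at least 33.2-fold lower. It was the only one of 11 cilium genes with 10 to 20 normalized CPM in wild type that was at 0, in a range where 11.0% of all genes were. *Bbs9* had 11 and 236 counts, at a fold change of 0.136 (0.0668 to 0.247). Both encode structural subunits of the coat.

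*Bbs1*, the subunit that meets the membrane GTPase ARL6, had 156 counts in *tuft* against 368 in wild type, giving a fold change of 1.23 (1.02 to 1.49). *Bbs4* had 43 and 135 counts, 0.928 (0.642 to 1.32). *Bbs5* and *Bbs7* had the fewest counts of the 38 genes in wild type. *Bbs5* had 13 and 50 counts, 0.757 (0.377 to 1.41), and *Bbs7* had 15 and 67, 0.652 (0.346 to 1.15). At these depths no difference was detectable for *Bbs4*, *Bbs5* and *Bbs7*. The direction of *Bbs1* turned with library totals alone, to a log2 fold change of -0.09.

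*Bbs10* and *Bbs12* encode chaperonin-like proteins that help to assemble the BBSome. *Bbs10* had no count in *tuft* against 76 in wild type, which is at least 8.70-fold lower, and was 1 of 3 cilium genes with 3 to 5 normalized CPM in wild type, where 40.3% of all genes were at 0. *Bbs12* had 86 and 139 counts, 1.80 (1.36 to 2.37), and was not called.

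The transition zone was split as well: of its 8 genes, 5 (62.5%) were called lower, 2 (25.0%) higher and 1 was not called. Of all genes with a count, 24.3% were called lower and 14.2% higher. The highest and the second lowest fold change among the cilium genes with counts in both libraries, those of *Tctn2* and *Cc2d2a*, were both in this group. *Tctn2* (chromosome 5, 124598749 to 124627738) had 764 counts in *tuft* against 447 in wild type, giving a fold change of 4.98 (4.42 to 5.61). *Tctn3* (chromosome 19, 40596446 to 40612324) had 429 and 350 counts, 3.57 (3.09 to 4.12). In both genes the shallower *tuft* library held more counts than the wild-type library. Their relative *Tctn1* (chromosome 5, 122239495 to 122264489) had 40 and 253 counts, 0.460 (0.321 to 0.645), and overlaps *Hvcn1*. The tectonic proteins encoded by these 3 genes are components of the gate, and the interval of *Tctn1* lay below those of the other two.

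The other transition zone genes were all called lower. *Rpgrip1l* (chromosome 8, 91217030 to 91313291), which encodes a scaffold of the gate, had no count in *tuft* against 116 in wild type, which is at least 13.3-fold lower. *Cc2d2a* (chromosome 5, 43662374 to 43740975) had 5 and 236 counts, 0.0617 (0.0198 to 0.146). *B9d1*, a B9 domain partner of MKS1, had 24 and 579 counts, 0.121 (0.0767 to 0.181). *Tmem67*, which encodes a membrane receptor of the gate and overlaps *Rbm12b2*, had 11 and 125 counts, 0.256 (0.125 to 0.474), and was not called with a 99% interval. *Mks1* had 52 and 413 counts, 0.367 (0.269 to 0.490). Its call was lost with a 99% interval and with the size factors of DESeq2, the latter at a log2 fold change of -1.40.

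Both genes of ciliary membrane signaling were called lower, beside 24.3% of all genes with a count. *Gpr161* encodes a receptor that holds Hedgehog signaling off while it is in the cilium. It lies on chromosome 1 from 165281184 to 165326747 and had 4 counts in *tuft* against 272 in wild type, giving a fold change of 0.0428 (0.0116 to 0.111), the lowest of the cilium genes with counts in both libraries. It overlaps *Tiprl*. *Arl13b*, a GTPase of the ciliary membrane, had 11 and 192 counts, 0.167 (0.0819 to 0.305), and overlaps *Stx19*.

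None of the 3 genes of the basal body and of ciliary planar polarity was called, beside 38.6% of all genes called in either direction. *Ofd1*, a centriole gene on the X chromosome that overlaps *Gpm6b* and *Trappc2*, had 70 counts in *tuft* against 104 in wild type, giving a fold change of 1.96 (1.43 to 2.68). *Intu* and *Fuz* encode planar polarity effectors that act together at the basal body, and they lay on opposite sides of 1. *Intu* had 199 and 266 counts, 2.18 (1.80 to 2.63), and *Fuz*, which overlaps *Ap2a1*, had 29 and 170, 0.497 (0.323 to 0.740).

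Whether counting used strand is not given in the sources used here, and overlapping genes can share reads. Of the 38 genes, 27 overlap no gene with counts, and of these 12 (44.4%) were called lower and 3 (11.1%) higher. Of the 11 that overlap another gene, 4 (36.4%) were called lower and 1 (9.1%) higher. Over all genes with a count these shares were 24.3% and 14.2%.

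**Figure D3:**
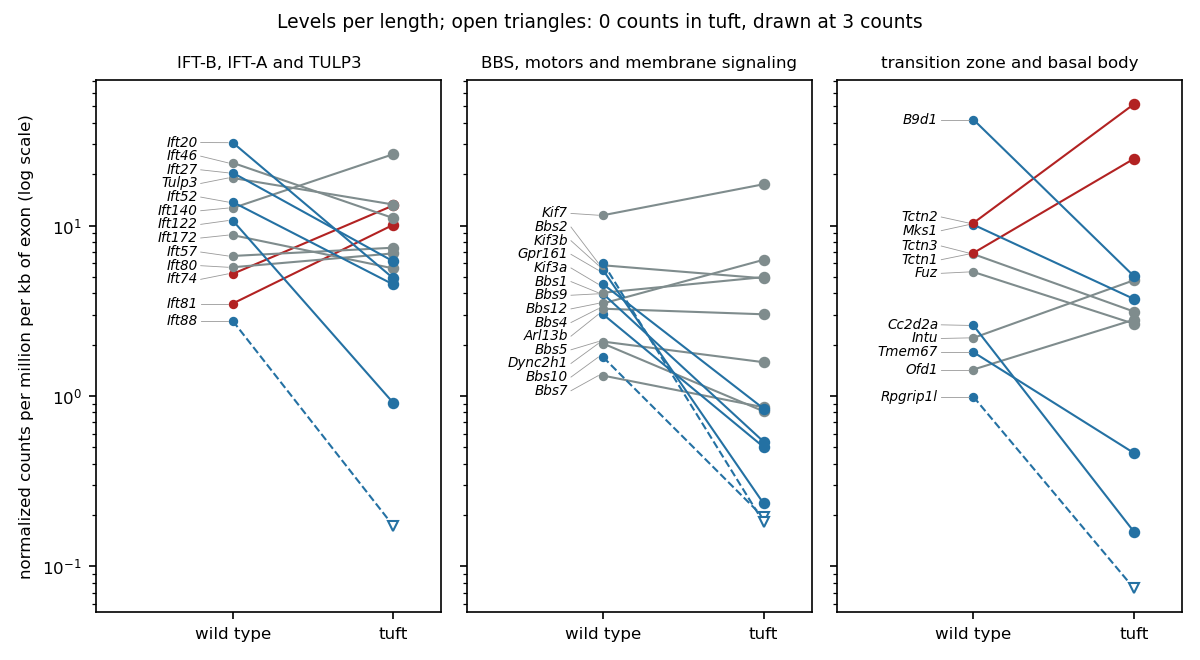
Normalized CPM per kilobase of exon (log scale) of each cilium gene in the wild-type and the *tuft* library, with a line per gene in blue where called lower, red where called higher and gray where not called. *B9d1* was the highest gene in wild type at 41.8 and *Tctn2* the highest in *tuft* at 51.5, and dashed lines end at the level that 3 counts give for genes without a count.

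Levels of different genes were compared per kilobase of exon, with exon lengths from GENCODE vM1. In wild type *B9d1* had the highest level, at 41.8 normalized CPM per kilobase, followed by *Ift20* at 30.6, *Ift46* at 23.3 and *Ift27* at 20.4. The lowest was *Rpgrip1l* at 0.989. Within IFT-B, whose subunits are held in fixed numbers in the train, the wild-type levels ranged from 2.75 (*Ift88*) to 30.6 (*Ift20*). Without *Ift88*, which was at 0 in *tuft*, the IFT-B range was 3.49 (*Ift81*) to 30.6 in wild type. For the same genes it was narrower in *tuft*, from 4.51 (*Ift52*) to 13.1 (*Ift74*). In *tuft* the order was another one. *Tctn2* led at 51.5, followed by *Ift140* at 26.2, *Tctn3* at 24.6 and *Kif7* at 17.5, while *B9d1* was 14th at 5.05 and *Ift20* 16th at 4.90.

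The fold changes of genes with and without the X-box letters are set side by side as a description. Of the 8 genes with them, 1 was called lower (*Mks1*) and 1 higher (*Tctn2*), and the median log2 fold change was 0.03. Of the 26 genes with a promoter window and no match, 13 were called lower and 2 higher, with a median of -1.46. Over all genes with a count, not split by the letters, 24.3% were called lower and 14.2% higher, with a median of -0.52. The difference between the 8 and the 26 genes was not tested. All 8 genes with the letters had counts in both libraries, whereas 4 of the 26 (15.4%) had none in *tuft*. Without a count in *tuft* were 31.2% of all genes with a count, and 7.8% of those with 5 to 100 normalized CPM in wild type.

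**Figure D4:**
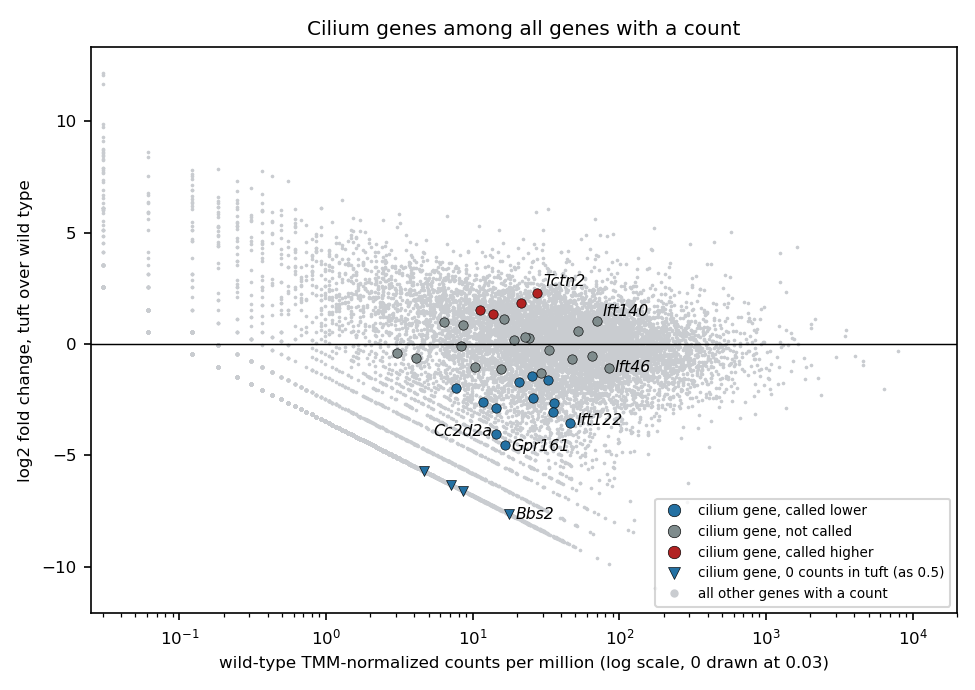
Log2 fold change against wild-type normalized CPM (log scale) for all genes with a count (light gray) and for the 38 cilium genes, colored by call, with triangles for the 4 genes without a count in *tuft*, plotted with 0.5 in place of 0. The cilium genes lie between 3.06 and 84.6 normalized CPM in wild type, where the fold changes of other genes are also widely spread.

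A second list held 55 other genes of the same structures, of which 54 were in the tables. Of these 54, 20 (37.0%) were called lower and 6 (11.1%) higher, with a median log2 fold change of -0.69, or -0.54 when every count below 3 was raised to 3. Over all genes with a count these values were 24.3%, 14.2% and -0.52, or -0.01 when every count below 3 was raised to 3. The 17 other IFT and motor genes had 9 called lower and 1 higher. Of the 17 other genes of the transition zone and the inversin compartment, 3 were called lower and 2 higher, a smaller share lower than the 5 of 8 above, and the difference was not tested. The 15 basal body genes and effectors had 7 called lower and 3 higher, and the 5 other BBS genes 1 lower and none higher.

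Of the other cilium genes, those at the ends of the range of fold changes, with 100 counts or more in each library or in 1 against none, are given here. Of these the highest was *Iqcb1*. It encodes a ciliary protein also known as NPHP5, had 451 counts in *tuft* against 153 in wild type, giving a fold change of 8.58 (7.13 to 10.4), and overlaps *Eaf2*. *Wdr34*, a dynein-2 intermediate chain, had 418 and 363 counts, 3.35 (2.91 to 3.87). *Cep164*, which marks the distal appendages of the mother centriole, had 1295 and 1494 counts, 2.52 (2.34 to 2.72). *Wdpcp* and *Tmem107* had fewer than 100 counts in wild type and were chosen after their values were seen. *Wdpcp*, a planar polarity effector that works with INTU and FUZ, had 297 and 67 counts, 12.9 (9.87 to 17.1). *Tmem107*, a transition zone gene, had 178 and 64, 8.10 (6.05 to 11.0). The lowest were at 0 in *tuft*. *2410089E03Rik*, now named *Cplane1*, also works with INTU and FUZ and had 603 counts in wild type, at least 69.0-fold lower. The IFT-A genes *Ift43* and *Wdr35* were also at 0 in *tuft*, with 392 and 303 counts in wild type, at least 44.9-fold and 34.7-fold lower.

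**Figure D5:**
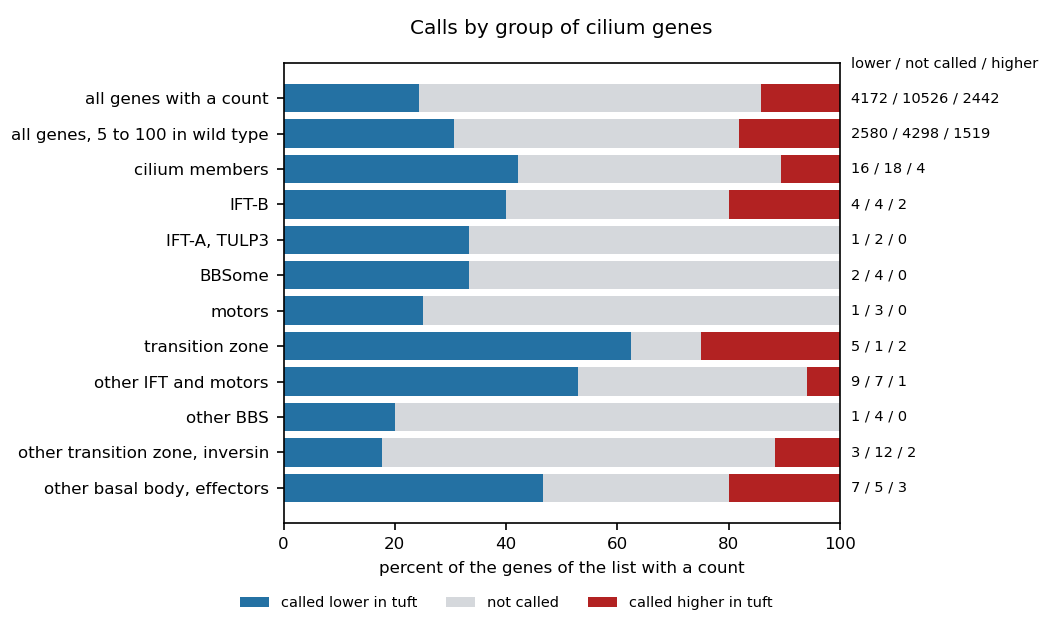
Percent of the genes with a count that were called lower (blue), not called (gray) or called higher (red) in *tuft*, with the numbers of genes at the right. The 38 cilium genes (16 lower, 4 higher) are shown whole and for 5 of their roles, beside the other cilium genes, all genes with a count and all genes with 5 to 100 normalized CPM in wild type.

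Of 7 listed transcription factors, *Foxj1* and genes of the RFX family, 2 (28.6%) were called lower and 1 (14.3%) higher. These shares were near the 24.3% and 14.2% of all genes with a count. *Rfx4* had 1 count in *tuft* against 283 in wild type, giving a fold change of 0.0103 (0.000260 to 0.0578), and *Rfx3* had 49 and 544, 0.262 (0.192 to 0.352). *Foxj1*, the master regulator of motile cilia, had 106 and 17 counts, 18.2 (10.8 to 32.3). The fold changes of *Rfx1*, *Rfx2*, *Rfx5* and *Rfx7* lay between 0.404 and 1.68, and none of them was called. Of 12 markers of motile cilia, 10 had a count, 1 of them (*Rsph1*) was called higher and 2 (*Ccdc39*, *Tekt1*) lower, and 7 were at 0 in *tuft*. The median level of these markers in wild type was 0.887 normalized CPM. Counts of 0 in *tuft* were common among all genes at such levels. They were found for 79.9% of genes with 0 to 1 normalized CPM in wild type, and for 60.9% with 1 to 3. The summed normalized CPM of the motile cilium markers was 33.0 in *tuft* against 46.3 in wild type.

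The Hedgehog pathway reads its signal through the cilium, and 3 of its transcriptional targets differed among themselves. *Gli1* had 463 counts in *tuft* against 948 in wild type, giving a fold change of 1.42 (1.27 to 1.59), was not called, and overlaps *Arhgap9*. *Ptch1* had 285 and 2485 counts, 0.334 (0.294 to 0.378), and was called lower. *Hhip* had no count in *tuft* against 101 in wild type, which is at least 11.6-fold lower. Of 13 genes of the pathway, 2 (15.4%) were called lower and 2 (15.4%) higher, beside 24.3% and 14.2% of all genes with a count.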

How the data were processed

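The authors trimmed single-end Ion Proton reads of poly-A-selected RNA with PRINSEQ, aligned them to mm10 with TopHat (2.0.14, per the submitters' processing notes) and ran htseq-count on the alignments. The deposited tables hold raw counts by gene symbol. The version and strand setting of HTSeq are not given in the sources used here. The 5 summary lines were left out of totals. Alignments that were not unique made up 59.2% of the *tuft* table and 51.4% of the wild-type table, and counts on genes 27.4% and 37.3%.

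TMM factors were computed with edgeR 4.0.16 in R 4.3.3 over genes with a count in either library, and fold changes and intervals in Python 3.11.15 with scipy 1.17.1. A 0 was replaced by 0.5 for medians, and bounds used 3 counts. With 1 column of counts per genotype there are no residual degrees of freedom. The study's NOISeq-sim draws its noise from simulated libraries and was not rerun. The calls were also run on simulated libraries with counting error alone and 200 genes changed 4-fold. Those libraries hold the interval's own assumption, so they check the computation and cannot show how reliable the calls are in the real libraries. Reads carry no molecular identifiers, so intervals cover counting error only.

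Gene positions and promoters are from RefSeq (GRCm38.p6), the build of mm10, and exon lengths from GENCODE vM1 on NCBIM37, an older build. All 38 genes are named. Other cilium genes are named by the 3 highest and 3 lowest fold changes among those with at least 100 counts in both libraries, or in 1 with none in the other. The genes, lists and rules were chosen with earlier results of these data known. Alternatives were other normalizations, filters on low counts, other folds and intervals, and other values for 0.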

Additional observations from a re-analysis of the deposited data

How the results depend on the processing

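No paired analysis was possible because each genotype has 1 column of counts, and for the same reason no replicate could be left out. Of the 16 cilium genes called lower, 15 were called lower under all 6 other normalizations and filters, and of the 4 called higher 2 (*Tctn2* and *Tctn3*) were. The numbers called higher were 2 with library totals alone and 2 centered on the median of genes that had 100 counts or more in each library. Of all genes, 10.1% and 10.6% were then called higher. Past 4-fold in place of 2-fold, 10 of the 38 genes were called lower and 1 (*Tctn2*) higher, beside 13 and 3 of the 54 other cilium genes. Of all genes, 2218 (12.9%) were then called lower and 972 (5.67%) higher. Past 1.5-fold, 11 of the 54 other cilium genes were called higher, beside 19.6% of all genes. By the point estimate alone, 10 of the 54 other cilium genes were called higher, beside 19.0% of all genes. Of all genes 7481 (43.6%) were then called lower. With a 99% interval 14 of the 38 genes were called lower and 3 higher, beside 21.1% and 13.4% of all genes. The calls of *Tmem67*, *Mks1* and *Ift74* were then lost. These settings change the threshold or the scale itself. The median log2 fold change of the 38 genes ranged from -1.44 with library totals alone to -1.0 with the size factors of DESeq2. No called gene changed direction under any normalization or filter, and *Ift57*, *Ift80* and *Bbs1*, which were not called, did so with library totals alone and with the centering. By counting error alone, a count of 0 in *tuft* allows up to 0.535 normalized CPM. This is a bound for a 0 count and not a limit of detection, since *Rfx4* had 1 count there, a level of 0.178.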
